A study of Mus musculus with 13 samples.

Results

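Fgf21 and 9 other genes of the integrated stress response (Gdf15, Atf4, Atf5, Ddit3, Trib3, Chac1, Sesn2, Asns and Psat1) were followed through 11 bulk RNA-seq libraries of sorted and cultured cells from mouse skeletal muscle. These 10 genes, of 24411 in the bulk table, were selected on their bulk levels in earlier work with these data. Their levels and differences are therefore given as a description, with no p-value, and wherever the number of them called in the fit over all genes is printed beside the share of all genes called, nothing is read from it. Each of the 10 passed the filter on low values, which asked for at least 1 FPKM (fragments per kilobase, a level scaled to gene length and to the fragments mapped in the library) in at least 2 libraries.

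The cells came from wild-type C57BL/6 mice aged 2 months, with no transgene or treatment named for any group. SMMC, smooth-muscle and mesenchymal-like cells, were sorted as CD31-, CD45-, Sca1-, Vcam1- and ITGA7+. They were sequenced fresh (n = 3), as proliferating cells after 3 days of culture (n = 3), and as differentiating cells (n = 3), for which the labels give no duration. Freshly sorted muscle stem cells (MuSC, n = 2) had the same sort except that they were Vcam1+. All 11 libraries were prepared by Smart-seq2 from polyA RNA. Nothing in the labels ties them to separate animals, so a p-value here covers the spread between libraries, which may be technical. The other 2 of the 13 samples were droplet libraries of single mononuclear cells from muscle.

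The integrated stress response is the programme that follows phosphorylation of the translation factor eIF2alpha by any of several kinases. General translation then falls while the mRNA of the transcription factor ATF4 is translated more, so that ATF4 acts largely through its protein and not only through its mRNA level. ATF4, with partners such as CHOP, raises genes for amino acid synthesis, redox control and feedback, and in muscle under mitochondrial or nutrient stress it can raise the secreted hormones FGF21 and GDF15.

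A binding element used by ATF4 and CHOP, the C/EBP-ATF composite TGATGNAA, was searched for on both strands of the RefSeq promoters of build GRCm38.p6, from 250 bases before to 50 bases after each start site. All 10 genes matched the table, with 13 promoter windows, and 4 windows of 4 genes held the composite, against 3.97% of all 32851 windows. The 250 bases before the start of Fgf21 (chr7:45615491-45615740, minus strand) are shown because this gene had the widest range of levels, with the composite in capitals, which reads TGATGCAA on the opposite strand.

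Fgf21: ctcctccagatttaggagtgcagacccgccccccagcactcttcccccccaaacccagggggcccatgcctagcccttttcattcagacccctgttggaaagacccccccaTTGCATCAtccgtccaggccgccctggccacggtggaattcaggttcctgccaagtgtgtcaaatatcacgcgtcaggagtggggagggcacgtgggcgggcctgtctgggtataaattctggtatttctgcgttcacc

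The match of Fgf21 lay at positions -139 to -132. The other 3 genes with a match are shown by 30 bases around it, in the direction of the gene, with the composite in capitals, for chr2:119351038-119351067 (plus strand), chr2:152344028-152344057 (minus strand) and chr6:7693214-7693243 (minus strand) in this order.

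Chac1: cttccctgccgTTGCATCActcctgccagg
Trib3: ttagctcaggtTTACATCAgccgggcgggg
Asns: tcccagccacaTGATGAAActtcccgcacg

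The matches of Chac1, Trib3 and Asns began at positions -193, 15 and -23. The E-box CAGCTG, which reads the same on both strands and is used by muscle regulatory factors, occurred in the windows of Fgf21 (positions 21 to 26) and Chac1 (positions -19 to -14), and in 16.3% of all windows. No window of the 10 genes held the ER stress element, CCAAT and CCACG with a gap of 9 bases, which 0.119% of all windows held. A match describes letters in a window and not a bound site, and a gene without a match may hold the element outside the window.

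Markers of the sorted and cultured states separated the groups, as summed FPKM over each list. The 7 myogenic differentiation genes found in the table summed to between 73.8 and 135 in fresh, 677 and 1934 in proliferating, and 17034 and 20827 in differentiating SMMC, and between 22.1 and 23.0 in MuSC. Muscle stem cell markers summed to between 715 and 960 in fresh SMMC, against 27289 to 39739 in MuSC, mostly through Sdc4, at a mean of 483 in fresh SMMC, against 31275 in MuSC. Pax7 had 1.17 FPKM in fresh SMMC, against 19.8 in MuSC, and Myf5 6.07 in fresh SMMC, against 1943 in MuSC, whereas Chodl was higher in fresh SMMC, at 331, against 133 in MuSC. Fresh SMMC carried all 8 smooth muscle and pericyte markers (1912 to 3650), all 5 tenocyte markers (7811 to 15139.8) and all 5 fibro-adipogenic markers (1868 to 3591) at a mean of 1 FPKM or more. In bulk RNA fewer cells of a type and less RNA per cell cannot be told apart.

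Fgf21, a secreted hormone of the fibroblast growth factor family, was abundant in differentiating SMMC and low in the other 3 groups. Its level was 7.44, 4.86 and 1.32 FPKM in the 3 fresh SMMC libraries, 1.29, 0.540 and 0.386 in the proliferating, 161, 238 and 122 in the differentiating, and 1.54 and 1.04 in the 2 MuSC libraries. All 3 differentiating libraries stood far above every other library, whereas the fresh libraries overlapped the MuSC libraries and the MuSC libraries overlapped the proliferating ones. The mean of 173 ± 58.8 FPKM in differentiating SMMC was 235 times the 0.739 ± 0.483 in proliferating SMMC and 38.2 times the 4.54 ± 3.07 in fresh SMMC (SD, n = 3 each). On the log2(FPKM + 1) scale used for all log2 differences here, which understates the change of low genes, Fgf21 stood 6.63 higher in differentiating than in proliferating SMMC, and between 6.38 and 6.85 higher when any 1 library was left out.

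Gdf15, a stress-induced hormone of the TGF-beta superfamily that acts on the brainstem, had another pattern. It had 11.3, 15.5 and 15.7 FPKM in fresh SMMC, 3.92, 2.03 and 1.68 in proliferating SMMC, 0.948, 3.35 and 2.14 in differentiating SMMC, and 4.07 and 5.20 in MuSC. The 3 fresh SMMC libraries were the highest, MuSC came next, and the differentiating and proliferating libraries overlapped. Its log2 difference between differentiating and proliferating SMMC was -0.20 and turned to as much as 0.11 when replicate 1 of either group was left out. Differentiating SMMC, the group with the highest mean Fgf21, had the lowest mean Gdf15, at 2.15 ± 1.203 FPKM (SD, n = 3).

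**Figure D1:**
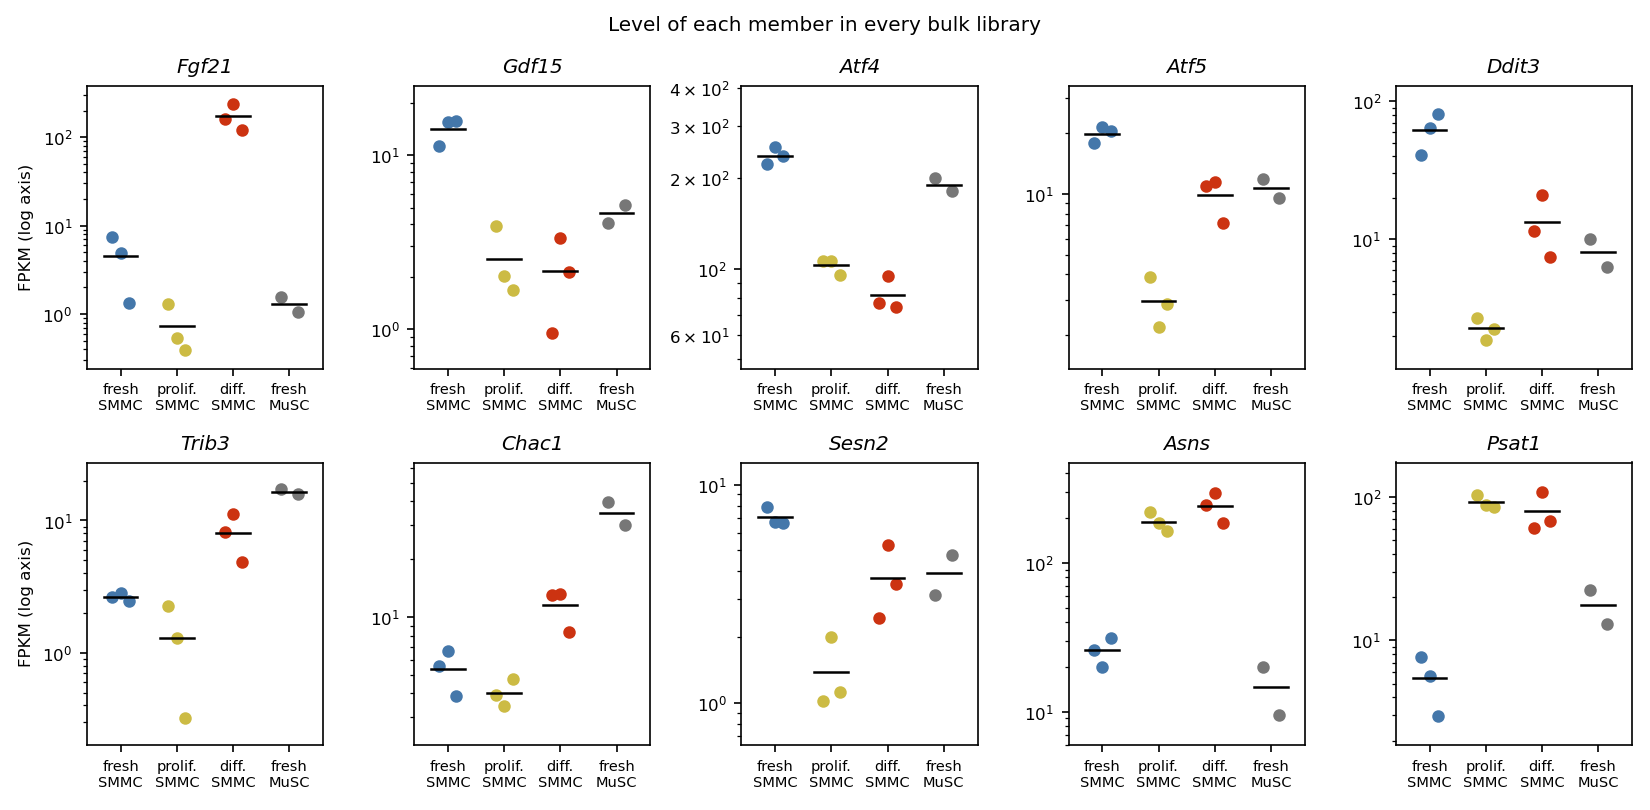
Level of each of the 10 genes in every bulk library, in FPKM on a log axis, with 1 panel per gene, points for libraries and lines for group means. Fgf21 in differentiating SMMC, at 122 to 238 FPKM, lies above all other libraries, while Gdf15, Atf4, Atf5, Ddit3 and Sesn2 are highest in fresh SMMC, Asns in cultured SMMC, and Trib3 and Chac1 in MuSC.

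Among the transcription factors, Atf4 mRNA was lowest where Fgf21 was highest. Atf4 had 224, 254 and 237 FPKM in fresh SMMC, 106, 106 and 95.1 in proliferating SMMC, 76.7, 94.3 and 74.5 in differentiating SMMC, and 199.9 and 181 in MuSC. No neighbours in the order fresh SMMC, MuSC, proliferating SMMC, differentiating SMMC overlapped, although the last step was small, at 81.8 ± 10.9 FPKM in differentiating SMMC, against 103 ± 6.52 in proliferating SMMC (SD, n = 3 each).

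Ddit3, which encodes CHOP, the stress-induced partner of ATF4, had the widest range among the 3 factors. It had 41.0, 63.8 and 80.5 FPKM in fresh SMMC, 2.71, 1.86 and 2.26 in proliferating SMMC, 11.6, 20.8 and 7.43 in differentiating SMMC, and 10.1 and 6.29 in MuSC. All 3 differentiating libraries were above all 3 proliferating libraries and below all 3 fresh ones, and they overlapped MuSC. The mean was 5.83 times as high in differentiating as in proliferating SMMC, and 27.1 times as high in fresh as in proliferating SMMC.

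Atf5, a related factor whose mRNA is also translated under stress and which is linked to mitochondrial stress, followed Ddit3 closely. Its levels were 17.9, 21.4 and 20.4 FPKM in fresh SMMC, 3.87, 2.19 and 2.85 in proliferating SMMC, 10.96, 11.4 and 7.20 in differentiating SMMC, and 11.8 and 9.58 in MuSC. Proliferating SMMC stood below every other group and fresh SMMC above, with the differentiating and MuSC libraries between them and overlapping. The root mean square difference between the scaled profiles of Atf5 and Ddit3 (log2 values centred on the gene's mean and divided by its SD, over 11 libraries) was 0.320 SD, the smallest between any 2 of the 10 genes.

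Trib3 and Chac1, which are raised by ATF4 and CHOP, were highest in MuSC. Trib3, a pseudokinase that feeds back on ATF4 and CHOP, had 2.63, 2.85 and 2.46 FPKM in fresh SMMC, 2.24, 1.29 and 0.321 in proliferating SMMC, 8.15, 11.2 and 4.85 in differentiating SMMC, and 17.1 and 15.7 in MuSC. Chac1, an enzyme that degrades glutathione, had 5.59, 6.69 and 3.88 FPKM in fresh SMMC, 3.94, 3.45 and 4.74 in proliferating SMMC, 13.0, 13.2 and 8.38 in differentiating SMMC, and 39.9 and 30.1 in MuSC. Both genes ranked the groups as MuSC, differentiating, fresh and proliferating SMMC, and for both the differentiating libraries stood above all fresh and proliferating ones. Fresh and proliferating libraries overlapped for Chac1 and not for Trib3, for which proliferating replicate 3 was the lowest.

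Sesn2, which encodes the leucine sensor Sestrin 2 that restrains the growth kinase mTORC1, was at 7.89, 6.74 and 6.69 FPKM in fresh SMMC, 1.02, 1.99 and 1.11 in proliferating SMMC, 2.44, 5.26 and 3.50 in differentiating SMMC, and 3.10 and 4.77 in MuSC. Fresh SMMC was highest and proliferating SMMC lowest, without overlap with the next group, and the differentiating and MuSC libraries overlapped.

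The 2 amino acid enzymes were high in both cultured groups. Asns, asparagine synthetase, had 25.9, 20.0 and 31.3 FPKM in fresh SMMC, 219, 184 and 163 in proliferating SMMC, 242, 294 and 186 in differentiating SMMC, and 19.8 and 9.54 in MuSC. Psat1, phosphoserine aminotransferase of the serine synthesis route, had 7.64, 5.65 and 2.98 FPKM in fresh SMMC, 103, 87.8 and 84.7 in proliferating SMMC, 60.7, 109 and 68.2 in differentiating SMMC, and 22.5 and 12.9 in MuSC. For both genes all 6 cultured libraries stood above all 5 fresh ones, and the differentiating and proliferating libraries overlapped. They parted between the fresh sorts, where Psat1 was lower in fresh SMMC than in MuSC and Asns was higher.

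**Figure D2:**
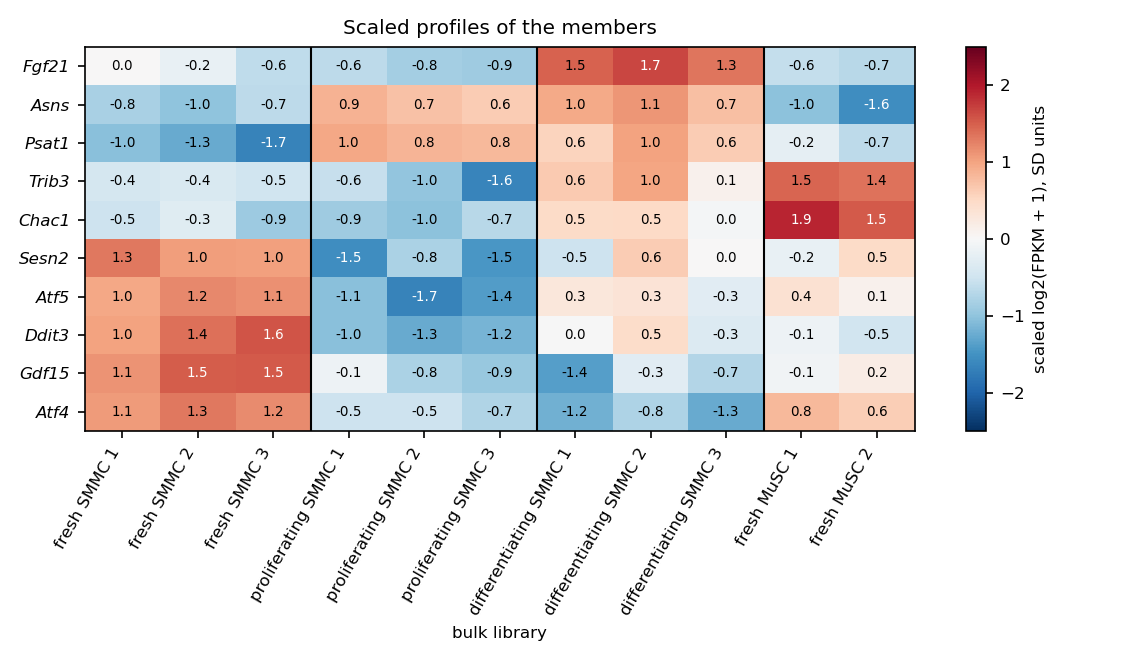
Scaled profile of each gene over the 11 bulk libraries, as log2(FPKM + 1) centred on the gene's mean and divided by its SD, with genes down the page and libraries across. The 3 differentiating libraries are the highest for Fgf21, the 6 cultured libraries for Asns and Psat1, the 2 MuSC libraries for Trib3 and Chac1, and the 3 fresh SMMC libraries for Sesn2, Atf5, Ddit3, Gdf15 and Atf4.

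The 10 genes thus did not share 1 order of levels. By the same distance, the nearest of the other 9 genes was Chac1 for Trib3 (0.392 SD), Gdf15 for Atf4 (0.422 SD), Ddit3 for Sesn2 (0.466 SD) and Psat1 for Asns (0.505 SD). Fgf21 had the largest distance to its nearest gene, Asns, at 0.972 SD. Its distance to Atf4, 1.66 SD, was smaller than that of Asns to Atf4, 1.86 SD. The 4 genes with a composite match were split between these patterns. Fgf21 was highest in differentiating SMMC, Asns was high in both cultured groups, and Trib3 and Chac1 were highest in MuSC.

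The genes outside the list whose scaled profile lay nearest to that of Fgf21 were Esrrb (0.168 SD), Gdf5 (0.178 SD), Pvalb (0.186 SD), Camk2a (0.213 SD) and Cdkn1a (0.224 SD), taken over all 13233 genes tested and 11 libraries. Being chosen by that likeness, they are listed with no test. Cdkn1a, which encodes the cell cycle inhibitor p21, was the most abundant, at 339 ± 24.8 FPKM in fresh, 253 ± 67.0 in proliferating and 1356 ± 63.3 in differentiating SMMC, beside 294.5 ± 45.4 in the 2 MuSC libraries (SD). Camk2a, a subunit of a calcium-regulated kinase, had 33.9 ± 10.5 FPKM in differentiating SMMC, and no more than 2.79 FPKM in any library of the other groups. Pvalb, a calcium buffer of fast muscle fibres, Gdf5, a secreted bone morphogenetic protein relative, and the orphan nuclear receptor gene Esrrb were low throughout, with means of 3.95, 2.89 and 1.14 FPKM in differentiating SMMC. Elsewhere their highest value was 0.646 FPKM, for Gdf5 in fresh SMMC replicate 1. Pvalb, Gdf5 and Esrrb therefore passed the filter only through the differentiating libraries, and their likeness to Fgf21 rests on values near the floor in the other groups. Among the 6, Fgf21 was second to Cdkn1a in level in differentiating SMMC.

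**Figure D3:**
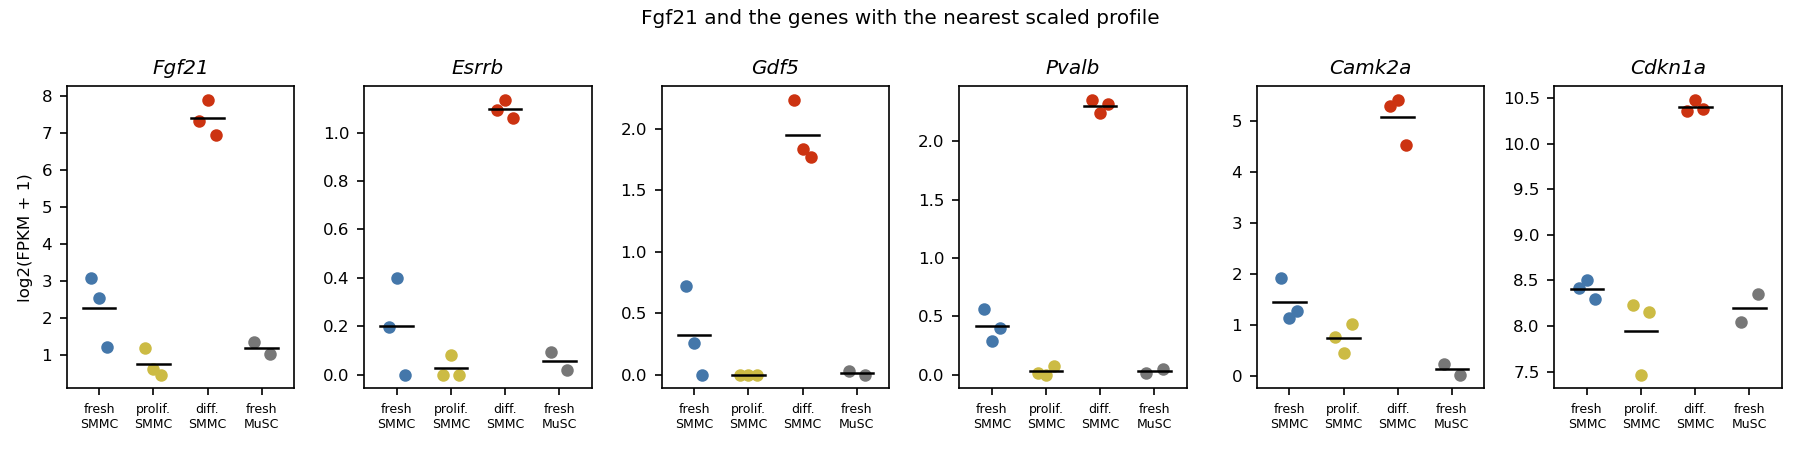
Fgf21 and the 5 genes with the nearest scaled profile, as log2(FPKM + 1) in every bulk library, with lines for group means of these log2 values and a separate axis per gene. In each panel the 3 differentiating SMMC libraries lie above the other 8, and the panels differ in scale, from about 1 for Esrrb to above 10 for Cdkn1a.

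In differentiating against proliferating SMMC, the differences of the 10 genes ran from Fgf21 at 6.63 through Ddit3 at 2.02, Trib3 at 2.02, Atf5 at 1.45, Chac1 at 1.29, Sesn2 at 0.97 and Asns at 0.34 to Gdf15 at -0.20, Psat1 at -0.26 and Atf4 at -0.33. Leaving out 1 library, each time one of the differentiating libraries at the extremes, gave 0.18 to 0.51 for Asns and -0.50 to -0.09 for Psat1. The median of the 10 was 1.13. Over all 13233 genes tested the median was 0.00, and by limma with Benjamini-Hochberg adjustment at 0.05, 20.9% of all genes were called higher and 19.6% lower, and 6 of the 10 were called higher and 0 lower. Myogenic markers moved with these differences, as did the cell cycle markers, which summed to between 88.6 and 208 FPKM in differentiating and between 1187 and 1486 in proliferating SMMC. Their part in the differences was not tested.

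The pathway lists were also chosen with earlier results of these data known, so their counts and p-values are no independent test. Of 9 ATF4 and CHOP partner and feedback genes tested, 5 rose and 0 fell in differentiating SMMC, and the list's median log2 difference was 0.66. Vldlr, a lipoprotein receptor raised by ATF4, rose to 8.86 ± 5.42 FPKM in differentiating SMMC, against 0.835 ± 0.219 in proliferating SMMC (SD, n = 3 each, as for all SMMC means here; fold 4.83 on the log2(FPKM + 1) scale, adjusted p = 0.00058 by limma). Nupr1, a stress-induced chromatin protein, rose to 5.19 ± 2.31 FPKM in differentiating SMMC, against 0.646 ± 0.335 in proliferating SMMC (adjusted p = 0.00082). Ddit4, an mTORC1 inhibitor, rose to 4.83 ± 1.43 FPKM in differentiating SMMC, against 1.02 ± 0.333 in proliferating SMMC (fold 2.84, adjusted p = 0.0037).

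The metabolic lists were mixed in this comparison. Among 12 serine, one-carbon, proline and cysteine enzymes 3 rose and 4 fell. Aldh1l2, the mitochondrial formyltetrahydrofolate dehydrogenase, rose to 10.3 ± 4.63 FPKM in differentiating SMMC, against 0.842 ± 0.351 in proliferating SMMC (fold 5.78, adjusted p = 0.00030), and Gpt2, mitochondrial alanine transaminase, rose to 93.6 ± 23.0 FPKM in differentiating SMMC, against 31.6 ± 11.7 in proliferating SMMC (fold 2.98). Mthfd1l, a mitochondrial formate-producing enzyme, fell to 11.4 ± 4.44 FPKM in differentiating SMMC, against 43.1 ± 21.6 in proliferating SMMC. Of 9 amino acid transporters 2 rose and 2 fell, among them the glutamine carrier Slc1a5, which fell to 19.96 ± 4.41 FPKM in differentiating SMMC, against 61.7 ± 7.92 in proliferating SMMC (adjusted p = 0.00011 by limma).

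Of 12 cytosolic tRNA synthetases 0 rose and 1 fell, Mars, with 62.4 ± 2.51 FPKM in differentiating SMMC, against 107 ± 10.4 in proliferating SMMC (adjusted p = 0.0027). Among 18 genes of the unfolded protein response of the endoplasmic reticulum 2 rose and 2 fell. Herpud1, a membrane protein of ER-associated degradation, rose to 162 ± 5.58 FPKM in differentiating SMMC, against 47.7 ± 6.27 in proliferating SMMC (fold 3.37, adjusted p = 1.0e-05), and Dnajb9, an ER chaperone cofactor, rose to 24.7 ± 4.03 FPKM in differentiating SMMC, against 12.8 ± 1.89 in proliferating SMMC. Manf, a secreted ER stress protein, fell to 80.0 ± 12.02 FPKM in differentiating SMMC, against 136 ± 22.9 in proliferating SMMC. Of 8 eIF2alpha kinase, substrate and phosphatase genes 0 rose and 1 fell, and of 9 mitochondrial chaperones and proteases 0 rose and 2 fell, with the chaperonin gene Hspd1 down to 776 ± 134 FPKM in differentiating SMMC, against 2535 ± 250.2 in proliferating SMMC (adjusted p = 1.6e-05).

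**Figure D4:**
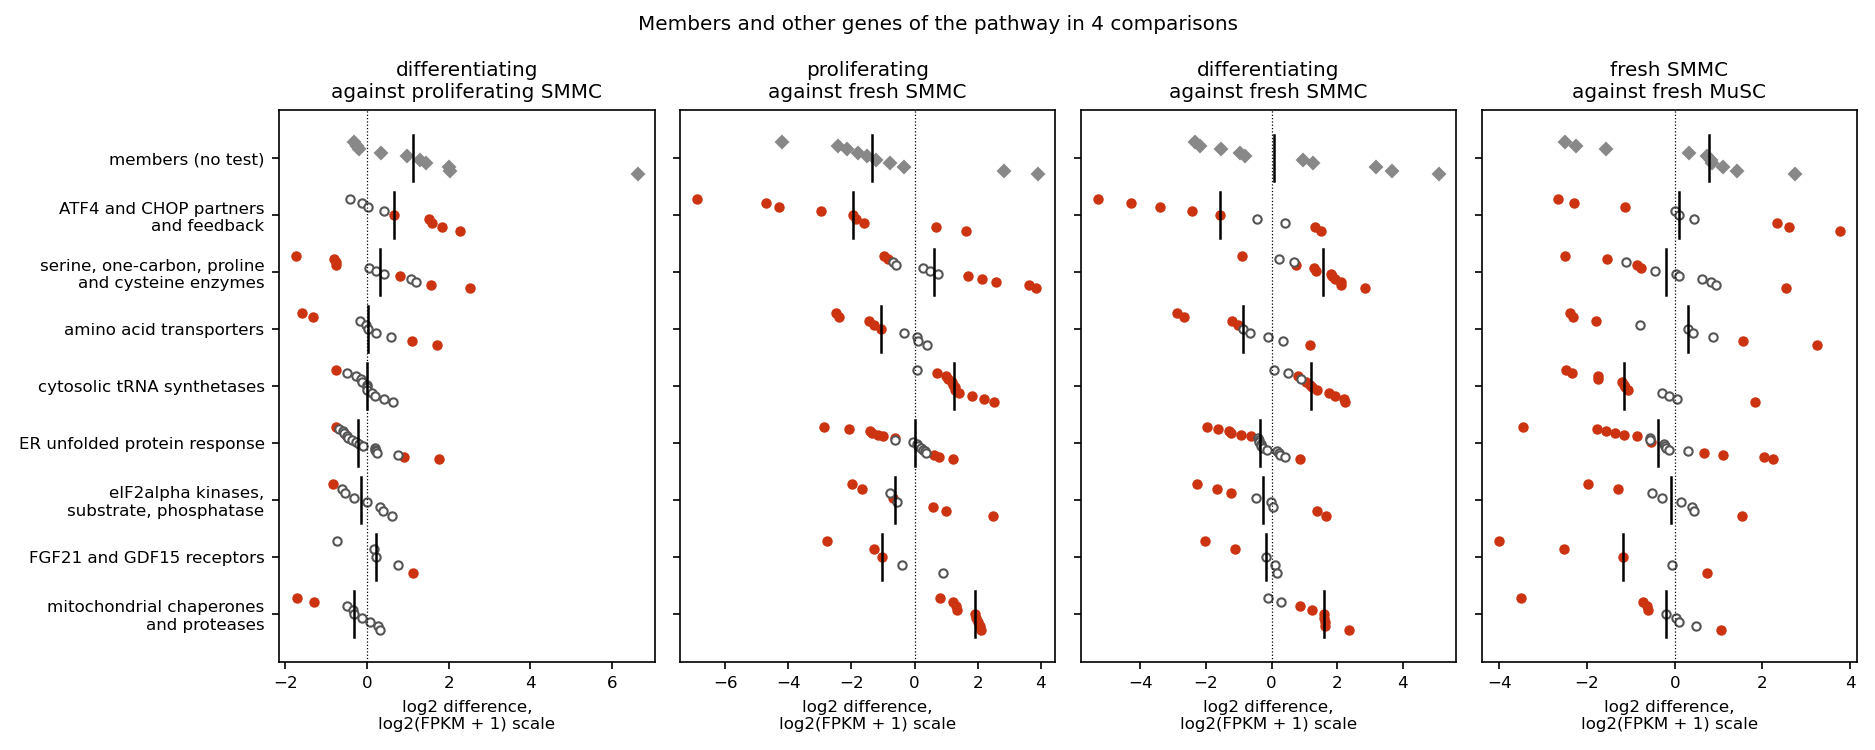
Log2 differences on the log2(FPKM + 1) scale in the 4 comparisons, with 1 row per gene list, diamonds for the 10 genes, whose calls are not marked, filled circles for list genes with an adjusted p under 0.05 by limma, open circles for other list genes and vertical lines for list medians. Fgf21, at 6.63, is the rightmost diamond in the first panel, and in the second panel all 9 mitochondrial genes are filled and above 0, where each rescaling called 8.

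In proliferating against fresh SMMC, 2 of the 10 genes, Psat1 at 3.92 and Asns at 2.84, stood higher, and the others stood lower, from Chac1 at -0.32 and Trib3 at -0.77 through Atf4 at -1.21, Fgf21 at -1.52, Sesn2 at -1.79, Gdf15 at -2.13 and Atf5 at -2.42 to Ddit3 at -4.22. Chac1 was at 0.01 after quantile normalization, and Trib3 at -0.21 after quantile normalization and -0.42 without proliferating replicate 3. The count of called genes was 2 higher and 6 lower, beside 33.1% of all genes called higher and 35.4% lower. The medians were -1.36 for the 10 genes and -0.06 for all genes tested.

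The dissociation response, 9 immediate early and heat shock genes that tissue digestion is known to raise, moved with the fresh sort, since it summed to between 392 and 481 FPKM in proliferating and between 8453 and 14771 in fresh SMMC, and all 9 genes fell. Most markers of other cell types moved in the same direction. All 5 fibro-adipogenic and all 4 tested endothelial markers fell, as did 7 of 8 smooth muscle and pericyte markers. Of 5 Schwann cell markers 4 fell and 1 rose. Of 5 tenocyte markers 4 fell and Scx did not, at 2.48 ± 0.163 FPKM in proliferating SMMC, against 2.31 ± 0.527 in fresh SMMC. Tenocyte markers summed to between 6.97 and 19.8 FPKM in proliferating and between 7811 and 15139.8 in fresh SMMC, and Dpt and Kdr were listed at 0 in every proliferating library. The part of digestion or of these cell types in the levels of Ddit3, Atf5, Gdf15, Sesn2 and Atf4 was not tested.

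The other pathway lists did not share a direction between these groups, and several held genes called both ways. Of 9 ATF4 and CHOP partners 7 fell and 2 rose. Atf3, a stress-induced factor that is also an immediate early gene, fell to 2.92 ± 0.458 FPKM in proliferating SMMC, against 473 ± 114 in fresh SMMC (adjusted p = 4.5e-08 by limma). Ppp1r15a, which encodes GADD34, the subunit that leads to dephosphorylation of eIF2alpha, fell to 21.7 ± 5.60 FPKM in proliferating SMMC, against 577 ± 48.2 in fresh SMMC (fold 26.0). Nupr1 fell to 0.646 ± 0.335 FPKM in proliferating SMMC, against 31.1 ± 6.71 in fresh SMMC. Against them, Eif4ebp1, a translation repressor raised by ATF4, rose to 206 ± 40.5 FPKM in proliferating SMMC, against 66.9 ± 17.3 in fresh SMMC (fold 3.08, adjusted p = 9.5e-05), and Stc2, a secreted glycoprotein, rose to 0.889 ± 0.306 FPKM in proliferating SMMC, against 0.177 ± 0.177 in fresh SMMC.

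Of 12 tRNA synthetases 11 rose and 0 fell in proliferating against fresh SMMC, beside the 33.1% of all genes called higher, among them Mars with 107 ± 10.4 FPKM in proliferating SMMC, against 18.1 ± 2.55 in fresh SMMC (fold 5.70, adjusted p = 8.3e-08 by limma), and Gars with 118 ± 3.54 FPKM in proliferating SMMC, against 32.8 ± 6.43 in fresh SMMC. Mars and Ddit3 overlap on opposite strands, and with the strand of counting not known their reads in the overlap cannot be told apart. Of 12 serine and one-carbon enzymes 5 rose, 2 fell and 5 were not called. Phgdh, the first enzyme of the route in which Psat1 is next, rose to 69.3 ± 4.39 FPKM in proliferating SMMC, against 4.78 ± 1.10 in fresh SMMC (fold 12.3, adjusted p = 4.1e-08). Shmt2, which moves the serine carbon into the mitochondrial folate pool, rose to 87.3 ± 12.4 FPKM in proliferating SMMC, against 13.9 ± 3.15 in fresh SMMC. All 9 mitochondrial chaperones and proteases rose, and 8 were called higher under each rescaling, with Hspd1 up to 2535 ± 250.2 FPKM in proliferating SMMC, against 632 ± 31.7 in fresh SMMC.

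Of 9 amino acid transporters 0 rose and 5 fell in this comparison, among them Slc38a2, a neutral amino acid carrier raised by ATF4, which fell to 24.99 ± 2.82 FPKM in proliferating SMMC, against 144 ± 13.1 in fresh SMMC (fold 5.59, adjusted p = 1.3e-07 by limma). Of 18 unfolded protein response genes 3 rose, 7 fell and 8 were not called, with a list median of 0.02, beside the 35.4% of all genes called lower. Among those that fell were Dnajb9, down to 12.8 ± 1.89 FPKM in proliferating SMMC, against 102 ± 24.9 in fresh SMMC, and Herpud1 down to 47.7 ± 6.27 FPKM in proliferating SMMC, against 204 ± 33.5 in fresh SMMC. Pdia6, a disulfide isomerase, rose to 465 ± 57.7 FPKM in proliferating SMMC, against 199.8 ± 31.8 in fresh SMMC (adjusted p = 0.00035).

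Among the 8 eIF2alpha kinase, substrate and phosphatase genes 3 rose and 3 fell in proliferating SMMC, or 2 and 5 after median-of-ratios rescaling. Eif2s1, which encodes eIF2alpha itself, rose to 228 ± 39.5 FPKM in proliferating SMMC, against 39.7 ± 6.42 in fresh SMMC (fold 5.63, adjusted p = 1.7e-06 by limma). The kinase genes differed among themselves, since Eif2ak1, the haem-regulated kinase that also relays mitochondrial stress, rose to 26.4 ± 7.61 FPKM in proliferating SMMC, against 12.7 ± 2.85 in fresh SMMC, and Eif2ak3, which encodes PERK, the kinase of the ER, fell to 0.562 ± 0.567 FPKM in proliferating SMMC, against 3.78 ± 0.246 in fresh SMMC. Ppp1r15b, the constitutive phosphatase subunit, fell to 2.73 ± 1.03 FPKM in proliferating SMMC, against 13.2 ± 0.281 in fresh SMMC.

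In differentiating against fresh SMMC, the same 10 genes split evenly, and the fresh libraries of this comparison are those of the one before. Fgf21 at 5.11, Psat1 at 3.66, Asns at 3.17, Trib3 at 1.25 and Chac1 at 0.97 stood higher, and Sesn2 at -0.82, Atf5 at -0.97, Atf4 at -1.54, Ddit3 at -2.19 and Gdf15 at -2.33 stood lower, with no overlap between the groups for any of them. The called counts were 5 higher and 5 lower, beside 34.7% of all genes called higher and 33.3% lower. The medians were 0.08 for the 10 genes and 0.03 for all genes tested. The dissociation response summed to between 395 and 780 FPKM in differentiating and between 8453 and 14771 in fresh SMMC, and all 9 genes fell. Tenocyte markers summed to 12.4 to 35.9 FPKM in differentiating SMMC, against 7811 to 15139.8 in fresh SMMC, fibro-adipogenic markers to 2.16 to 41.9 in differentiating SMMC, against 1868 to 3591 in fresh SMMC, and endothelial markers to 0.375 to 1.69 in differentiating SMMC, against 103 to 186 in fresh SMMC. Of 5 tenocyte markers 4 fell and Scx rose, to 7.13 ± 1.69 FPKM in differentiating SMMC, against 2.31 ± 0.527 in fresh SMMC. Of 8 smooth muscle and pericyte markers 7 fell and 0 rose. The part of digestion or of these cell types in the differences was not tested.

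Of 12 serine and one-carbon enzymes 9 rose and 1 fell, with Phgdh up to 40.97 ± 10.2 FPKM in differentiating SMMC, against 4.78 ± 1.10 in fresh SMMC (adjusted p = 3.3e-07 by limma). Psph, the enzyme after Psat1 in serine synthesis, rose to 38.8 ± 10.9 FPKM in differentiating SMMC, against 8.28 ± 2.66 in fresh SMMC. Of 12 tRNA synthetases 9 rose and 0 fell, and of 9 mitochondrial chaperones and proteases 7 rose and 0 fell. Of 9 ATF4 and CHOP partners 2 rose and 5 fell, among them Ppp1r15a, down to 30.4 ± 13.9 FPKM in differentiating SMMC, against 577 ± 48.2 in fresh SMMC (fold 19.6, adjusted p = 1.8e-07). Of 9 transporters 1 rose, Slc7a3, a cationic amino acid carrier, to 1.74 ± 1.36 FPKM in differentiating SMMC, against 0.102 ± 0.0978 in fresh SMMC, and 4 fell. Of 18 unfolded protein response genes 1 rose and 6 fell, and 9 to 11 fell under the 3 rescalings, with Hspa5, the main ER chaperone BiP, down to 1009 ± 196 FPKM in differentiating SMMC, against 3116 ± 602 in fresh SMMC (adjusted p = 5.5e-05). Of the 8 eIF2alpha kinase, substrate and phosphatase genes 2 rose, Eif2ak1 and Eif2s1, and 3 fell, Ppp1r15b, Eif2ak3 and Eif2ak4.

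In fresh SMMC against MuSC, Ddit3 at 2.75, Gdf15 at 1.42, Fgf21 at 1.09, Atf5 at 0.84, Asns at 0.83, Sesn2 at 0.73 and Atf4 at 0.32 stood higher, and Psat1 at -1.56, Trib3 at -2.26 and Chac1 at -2.51 stood lower. The called counts were 5 higher and 3 lower, beside 41.7% of all genes called higher and 18% lower, and of the 10, 5 were called without MuSC replicate 2, 5 after quantile normalization and 4 after median-of-ratios rescaling. The median difference was 0.78 for the 10 genes and 0.45 for all genes tested, so a difference of about 0.45 marks no departure from the whole table. Several differences moved with the scaling, since after median-of-ratios rescaling, which brings the median of all genes to -0.02, Atf4 was at -0.39, Atf5 at 0.17, Asns at 0.16, Sesn2 at 0.14 and Gdf15 at 0.80. After quantile normalization Fgf21 was at 0.42, Gdf15 at 0.88, Atf5 at 0.39 and Sesn2 at 0.04. Single libraries also mattered, since Asns was at 0.34 without MuSC replicate 2 and at 1.32 without MuSC replicate 1, Sesn2 at 0.49 and 0.98 over the libraries left out, and Fgf21 at 0.69 and 1.62. Apart from Atf4, each of the 10 genes kept its direction in this comparison under every one of the 20 alternatives that tested it.

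Technical and cell type values also separated these fresh sorts. Summed FPKM was 7811 to 15139.8 in fresh SMMC, against 11.3 to 17.9 in MuSC, for tenocyte markers, 1912 to 3650 in fresh SMMC, against 67.9 to 119.5 in MuSC, for smooth muscle and pericyte markers, 103 to 186 in fresh SMMC, against 4.15 to 4.43 in MuSC, for endothelial markers, and 1868 to 3591 in fresh SMMC, against 478 to 495 in MuSC, for fibro-adipogenic markers. The fibro-adipogenic sum was mostly Dcn in fresh SMMC, at a mean of 2653 FPKM, against 4.82 in MuSC. Of these 5 markers 3 rose and 2 fell, Dpt, at 37.8 FPKM in fresh SMMC, against 461 in MuSC, and Col15a1, at 5.02, against 19.7. Rn45s, the ribosomal RNA precursor, had 44109 ± 8928 FPKM in fresh SMMC (SD, n = 3), against 118 ± 6.88 in MuSC (SD, n = 2). It was also high in the cultured groups, at means of 41662 FPKM in proliferating and 35721 in differentiating SMMC. Rn45s thus set MuSC apart from every SMMC group. The dissociation response summed to between 8453 and 14771 FPKM in fresh SMMC and between 892 and 1431 in MuSC, and 8 of its 9 genes rose. Their part in the differences of Ddit3, Gdf15, Trib3, Chac1 and Psat1 was not tested.

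Pathway genes were mostly lower in fresh SMMC where they were called. Of 12 tRNA synthetases 1 rose, Mars, and 8 fell, with Nars down to 85.2 ± 11.1 FPKM in fresh SMMC, against 448 ± 173 in MuSC (SD, n = 2, as for all MuSC means here) (fold 5.04, adjusted p = 6.4e-06 by limma). Of 12 serine and one-carbon enzymes 1 rose, Gpt2, and 4 fell, among them Mthfd2, a mitochondrial folate enzyme raised by ATF4, down to 8.35 ± 2.58 FPKM in fresh SMMC, against 53.3 ± 24.3 in MuSC (fold 5.67). Of 9 transporters 2 rose and 3 fell. Slc7a5, the large neutral amino acid carrier, fell to 9.12 ± 2.91 FPKM in fresh SMMC, against 50.5 ± 10.1 in MuSC (adjusted p = 7.2e-06), and its partner chain Slc3a2 rose to 151 ± 38.9 FPKM in fresh SMMC, against 49.8 ± 7.07 in MuSC.

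Of 9 ATF4 and CHOP partners 3 rose and 3 fell in fresh SMMC against MuSC. Atf3 rose to 473 ± 114 FPKM in fresh SMMC, against 91.8 ± 0.344 in MuSC, and Ddit4 rose to 7.49 ± 3.98 FPKM in fresh SMMC, against 0.291 ± 0.134 in MuSC (fold 6.06). Cebpg, a dimer partner of ATF4, fell to 7.05 ± 1.98 FPKM in fresh SMMC, against 48.7 ± 4.53 in MuSC (fold 6.28, adjusted p = 4.2e-06 by limma). Of 18 unfolded protein response genes 4 rose and 7 fell, or 2 and 12 after median-of-ratios rescaling. The ER chaperone gene Hyou1 fell to 24.1 ± 4.399 FPKM in fresh SMMC, against 279 ± 93.2 in MuSC (adjusted p = 7.9e-07), and Xbp1, the factor downstream of IRE1, rose to 144 ± 18.5 FPKM in fresh SMMC, against 34.1 ± 2.44 in MuSC. Of 8 eIF2alpha kinase, substrate and phosphatase genes 1 rose, Eif2ak1, and 2 fell, Impact and Ppp1r15b. Of 9 mitochondrial chaperones and proteases 1 rose and 4 fell, or 0 and 7 after median-of-ratios rescaling, with the protease gene Yme1l1 down to 21.6 ± 2.82 FPKM in fresh SMMC, against 260.5 ± 85.9 in MuSC.

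The receptors for both hormones were also read. FGF21 acts through FGF receptors together with the co-receptor beta-Klotho, encoded by Klb, and GDF15 acts through GFRAL with RET. Klb did not pass the filter, being listed at 0 in every differentiating library, with a mean of 0.00667 FPKM in proliferating SMMC, 0.0233 in fresh SMMC and 0.425 in MuSC. Gfral did not pass it either, with a highest group mean of 0.00431 FPKM, in fresh SMMC. Of the 5 receptor genes tested, 1 rose and 0 fell in differentiating against proliferating SMMC, namely Fgfr3, up to 4.67 ± 1.35 FPKM in differentiating SMMC, against 1.62 ± 0.854 in proliferating SMMC (fold 2.20, adjusted p = 0.0084 by limma).

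Fgfr1, the most abundant FGF receptor gene in each group, had 37.0 ± 16.0 FPKM in differentiating SMMC, against 20.5 ± 6.03 in proliferating SMMC, which did not pass the test (adjusted p = 0.084 by limma). It fell in proliferating SMMC against the 144 ± 22.9 FPKM of fresh SMMC (fold 6.90, adjusted p = 9.4e-06), as did Fgfr2 and, except after quantile normalization, Fgfr3, and Fgfr1 and Fgfr2 fell in differentiating against fresh SMMC. In fresh SMMC against MuSC 1 receptor gene rose and 3 fell, and 0 rose after quantile normalization or median-of-ratios rescaling. Ret fell to 6.60 ± 2.56 FPKM in fresh SMMC, against 119 ± 31.1 in MuSC (fold 16.2, adjusted p = 0.00055), and Fgfr4 fell to 4.89 ± 2.70 FPKM in fresh SMMC, against 30.5 ± 0.503 in MuSC.

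In the 2 single-cell libraries, with 6144 and 6297 cells, UMI counts of each gene were summed over all cells and divided by the library's 19353328 and 15507938 UMIs. The libraries form 1 group, so there is no comparison, and the exact 95% Poisson intervals cover counting error only. They shared 53 cell barcodes. Atf4 was the most counted of the 9 genes read there, at 296 CPM (288 to 304) in library 1 and 365 CPM (355 to 375) in library 2. Gdf15 had 31.0 CPM (28.6 to 33.6) in library 1 and 91.95 CPM (87.2 to 96.8) in library 2, and Ddit3 had 75.8 CPM (72.0 to 79.8) in library 1 and 67.6 CPM (63.5 to 71.8) in library 2. In library 1 Atf5 had 66.6 CPM, Asns 9.51 CPM, Chac1 4.29 CPM and Trib3 3.93 CPM, and in library 2 Atf5 had 76.4 CPM, Asns 18.7 CPM, Trib3 8.19 CPM and Chac1 6.77 CPM. Fgf21 was not among the genes listed for either single-cell library, so no value is given for it there.

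The loci bear on how far some levels can be trusted, since the sources used here do not give the annotation or strand of counting. In GENCODE vM21 on GRCm38, Fgf21 (chr7:45613886-45615490, minus strand), Gdf15, Atf4, Trib3, Asns and Chac1 overlap no other gene. Atf5 (chr7:44812256-44816658, minus strand) overlaps Nup62 and Il4i1 on the opposite strand, Sesn2 overlaps the transcript Gm12981, and Psat1 holds the processed pseudogene Gm3329. Ddit3 (chr10:127290774-127296288, plus strand) overlaps Mars and the transcript Gm4189 on the opposite strand. It also holds another protein-coding entry named Ddit3 on the same strand (chr10:127290829-127293753). Where reads of such pairs overlap, the levels of Atf5, Ddit3, Sesn2 and Psat1 are uncertain.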

How the data were processed

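The authors deposited bulk levels as FPKM, 1 value per gene symbol and library, per the file headers, and single-cell values as UMI counts per gene and cell. The submitters' processing notes name StringTie, SAMtools 1.3.1 and HISAT2 2.1.0, and also Cell Ranger (2.1.0, 2.2.0), STAR 2.5.1b, R (3.3.1, 3.4.3, 3.5.1) and Seurat (2.2, 2.3.4), with build mm10, but not which made which table. Another 4 FPKM columns matched no sample and were not used.

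Genes passing the filter (13233) were fitted by limma 3.58.1 in R 4.3.3 on log2(FPKM + 1), one mean for each group over all 11 libraries, with 7 residual degrees of freedom and an intensity trend. P-values were two-sided and adjusted by Benjamini-Hochberg over these genes, and the code was tested on simulated data. The 10 genes and the lists were chosen with earlier results of these data known. For each comparison, the genes named from a list were the 3 with the lowest adjusted p among those called in its more common direction, those called the other way where at most 5, and all receptors. Such genes whose call ended in any alternative, receptors aside, enter as counts only, a choice made after values were seen; some others are left unnamed for length.

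Bulk depth is unknown, since 1817 genes under 0.3 FPKM in 2 fresh SMMC libraries showed no common step (the commonest 0.01 log2 bin of ratios held 0.936%). Median single-cell depth was 2516 and 2027 UMIs, and sums took every cell, with no clustering or doublet step.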

Additional observations from a re-analysis of the deposited data

How the results depend on the processing

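The counts of genes called kept within 1.5 times the reported ones under 19 of 20 alternatives. The exception was a filter at 10 FPKM, which by construction tests fewer genes (7892), with 6030 called in proliferating against fresh SMMC, 5911 in differentiating against fresh SMMC and 5233 in fresh SMMC against MuSC. Leaving out 1 library gave 4235 to 5428 genes called in differentiating against proliferating SMMC, 8182 to 9120 in proliferating against fresh SMMC, 8163 to 9202 in differentiating against fresh SMMC and 6237 to 8127 in fresh SMMC against MuSC. Of the 10 genes, of which the filter at 10 FPKM tested 9, 5 to 6, 7 to 9, 9 to 10 and 4 to 9 were called over the alternatives in these 4 comparisons. As deposited, 20.9%, 33.1%, 34.7% and 41.7% of all genes were called higher there, and 19.6%, 35.4%, 33.3% and 18% lower. Nothing is read from the counts of the 10 genes. The balance of calls in a pathway list turned round in 4 cases, each with few calls: the tRNA synthetases and the serine and one-carbon enzymes in differentiating against proliferating SMMC, the eIF2alpha genes in differentiating against fresh SMMC, and the serine and one-carbon enzymes in fresh SMMC against MuSC. In fresh SMMC against MuSC, 69.8% of called genes were higher as deposited, 48.1% after quantile normalization and 48.0% after median-of-ratios rescaling. With Rn45s left out and every library then scaled to the same total FPKM, the median of all genes moved. It was -0.20 in proliferating against fresh SMMC and -0.11 in differentiating against fresh SMMC. The cause of these shifts was not tested. The unknown depth limits what can be said of genes under about 1 FPKM.

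Same-numbered libraries were not shown to be paired, since the correlations of their deviations from the group means ran from -0.128 to 0.142 and 2 of 9 SMMC libraries correlated best with their own number. With the replicate number as a block, 5293, 9039, 8968 and 7642 genes were called in the 4 comparisons in the order above.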
